A study of Mus musculus with 80 samples.

Results

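The proteasome genes of mouse liver were described here: every row of the count tables whose symbol began with Psma, Psmb, Psmc, Psmd, Psme, Psmf or Psmg and a digit. The rule found 50 symbols among 19995 genes, 49 of them in each chemical's table; Psmb11 stood in the DEHP table only and Psme2b in the DCA table only. The members were sorted by role. They comprised the alpha ring (Psma1 to Psma7), the constitutive beta ring (Psmb1 to Psmb7), the interferon-inducible catalytic subunits (Psmb8, Psmb9 and Psmb10) and the base ATPases (Psmc1 to Psmc6). The others were the base and lid non-ATPases (11 Psmd genes), the activators and the inhibitor (Psme1 to Psme4, Psme2b and Psmf1), the assembly chaperones (Psmd5, Psmd9, Psmd10 and Psmg1 to Psmg4) and the tissue-restricted Psma8 and Psmb11. Psmc3ip, which matched the rule by name, encodes a meiotic recombination factor and not a subunit, and it passed no filter on low counts.

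All animals were male B6C3F1 mice, 4 weeks old, and total RNA of their livers was sequenced after depletion of ribosomal RNA, with no genetic change in any group. The treated mice of the first study ate feed with 1500, 3000 or 6000 ppm of the plasticizer DEHP, di(2-ethylhexyl) phthalate, over 7 days, and their controls ate feed with 0 ppm; there were 4 animals at each level and the livers date from 2013. In the second study the drinking water held DCA, dichloroacetic acid, which forms when water is chlorinated, at 1, 2 or 3.5 g/L, and that of controls held 0 g/L; there were 6 animals at each level and the livers date from 1994. The labels used here do not state how long DCA was given. Each of the 40 livers gave an FFPE library (formalin-fixed, paraffin-embedded) and a frozen library, 80 in all. Frozen material mixed the lobes while FFPE blocks held named lobes, so lobe and preparation cannot be told apart. The mouse was the replicate, and in whole liver fewer cells of a type and less RNA per cell cannot be told apart.

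The proteasome is the cylinder of stacked rings that degrades most ubiquitin-tagged proteins of the cell. Alpha rings gate the entrance, beta rings hold the proteolytic sites, and a cap of ATPases and non-ATPase subunits binds, unfolds and feeds in the substrate. Under interferon signalling, Psmb8, Psmb9 and Psmb10 take the places of Psmb5, Psmb6 and Psmb7 and make the immunoproteasome, abundant in leukocytes, which favours the cutting of peptides for MHC class I. Mammalian proteasome genes are known to be transcribed together, with NFE2L1 and, under oxidative stress, NFE2L2 acting on antioxidant response elements in several of their promoters.

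Depth set how firmly each comparison could be read. Gene counts per library reached a median of 16405449.5 (11673034 to 18866106) in DEHP FFPE and 22009498.5 (16582951 to 29550616) in DEHP frozen material. The DCA FFPE libraries held a median of 504138.5 (109292 to 8434613), of which a median of 56.5% lay in the ribosomal row Rn45s, against 14686415 (3067666 to 16890024) in DCA frozen libraries. In DEHP, 14 of 16 FFPE libraries resembled the frozen library of their own animal most closely (median r 0.592 over 5502 genes, a description). Animals 35A and 67C, both at 3000 ppm, did not match their own partners (r 0.07 and 0.0771), so counts at 3000 ppm are given with and without them. In DCA, 13 of 24 FFPE libraries resembled the frozen library of their animal most closely, with a median r of 0.0582 (2304 genes, a description). The frozen DEHP controls came from column-header prefixes H36399 and H36451, read here as sequencing runs. These runs held 3 treated frozen libraries (72B, 35A and 8C). The frozen DCA controls shared a lane with none of the 2 or 3.5 g/L libraries. Hepatocyte markers (Alb, Ttr, Apoa1 and 3 others) were abundant in every frozen library, between 60500 and 123000 CPM (counts scaled by edgeR to library size) summed over the top-dose and control groups.

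Promoter sequence from RefSeq (mouse build GRCm38.p6) was matched for 42 of the 50 symbols, each window running from 250 bases before to 50 after the annotated start. The windows of Psmd4, the member with the largest rise at 6000 ppm DEHP in frozen liver, of Psmb5 and Psmb6, which held the antioxidant core, and of Psmb8 and Psmb9, which fell under DCA and had no antioxidant core, are shown. Capitals mark matches on either strand to TGACNNNGC (the core of the antioxidant response element), CCAAT (the box bound by NF-Y) or GAAANNGAAA (a core of interferon-response elements). The Psmd4 window (chr3:95042565-95042864, minus strand) held CCAAT matches whose first bases lay at positions -95, 1 and 20, counted with the start base as 0, and an interferon core at -80. Those of Psmb5 (chr14:54617946-54618245, minus strand) and Psmb6 (chr11:70525107-70525406, plus strand) held the antioxidant core, at -47 and -9. The Psmb9 window (chr17:34187281-34187580, minus strand) had a CCAAT match at -8, and the Psmb8 window (chr17:34197945-34198244, plus strand) had no match.
Psmd4 promoter: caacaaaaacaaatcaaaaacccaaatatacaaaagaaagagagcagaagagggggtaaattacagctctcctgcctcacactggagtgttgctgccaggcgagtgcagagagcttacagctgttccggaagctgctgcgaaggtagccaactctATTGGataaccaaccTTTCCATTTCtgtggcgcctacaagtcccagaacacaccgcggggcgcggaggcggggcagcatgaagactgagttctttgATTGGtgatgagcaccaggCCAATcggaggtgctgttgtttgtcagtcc
Psmb5 promoter: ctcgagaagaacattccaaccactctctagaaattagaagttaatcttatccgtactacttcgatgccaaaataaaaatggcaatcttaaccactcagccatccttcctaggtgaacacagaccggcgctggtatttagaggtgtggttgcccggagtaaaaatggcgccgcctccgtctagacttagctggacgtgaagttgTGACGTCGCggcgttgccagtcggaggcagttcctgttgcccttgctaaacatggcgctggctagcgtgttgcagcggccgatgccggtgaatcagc
Psmb6 promoter: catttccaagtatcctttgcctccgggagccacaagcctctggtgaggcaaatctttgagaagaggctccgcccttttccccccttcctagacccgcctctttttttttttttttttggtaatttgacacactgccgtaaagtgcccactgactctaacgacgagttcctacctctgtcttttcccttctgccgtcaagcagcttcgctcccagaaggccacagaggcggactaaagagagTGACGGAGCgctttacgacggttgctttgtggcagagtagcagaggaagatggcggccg
Psmb8 promoter: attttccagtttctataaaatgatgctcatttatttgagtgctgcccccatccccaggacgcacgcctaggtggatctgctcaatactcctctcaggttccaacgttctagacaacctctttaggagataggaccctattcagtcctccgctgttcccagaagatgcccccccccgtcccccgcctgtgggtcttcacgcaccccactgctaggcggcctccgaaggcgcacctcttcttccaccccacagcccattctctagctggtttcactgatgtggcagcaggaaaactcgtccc
Psmb9 promoter: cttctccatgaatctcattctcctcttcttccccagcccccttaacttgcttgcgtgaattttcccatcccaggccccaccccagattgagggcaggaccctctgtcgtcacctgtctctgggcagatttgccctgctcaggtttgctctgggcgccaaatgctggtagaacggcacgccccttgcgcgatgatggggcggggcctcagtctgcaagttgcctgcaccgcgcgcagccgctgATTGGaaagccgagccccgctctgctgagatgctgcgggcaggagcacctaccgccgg

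The antioxidant core was found in 6 of 42 member windows (14.3%), against 3363 of 27025 windows of all genes (12.4%). The 6 were Psmb5, Psmb6, Psmc6, Psmd9, Psmd12 and Psme4. CCAAT stood in 15 of 42 member windows (35.7%), against 38% of all windows. It stood in 5 of the 7 alpha ring windows (71.4%), but in 1 of 4 of the beta ring and 2 of 9 of the non-ATPases. Over the constitutive ring and cap subunits together it stood in 10 of 25 (40%). The interferon core stood in 5 of 42 member windows (11.9%), against 3.49% of all windows, and in 0 of the 3 of Psmb8, Psmb9 and Psmb10. These are matches of letters in short windows and no test was made on them.

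In untreated frozen liver the constitutive subunits stood well above the immunoproteasome. On the length-normalised FPKM scale deposited by the authors, the median level in frozen DEHP controls was 61.7 FPKM over the alpha ring, 57.4 over the beta ring, 39.9 over the ATPases and 36.1 over the non-ATPases. Psmb7, the trypsin-like subunit, was the highest member at 81.2 ± 3.77 FPKM (SD, n = 4). The immunoproteasome subunits were low: Psmb8 reached 12.3 ± 2.36, Psmb10 9.96 ± 0.961 and Psmb9 6.26 ± 1.2 FPKM (SD, n = 4 each). The assembly chaperones had a median of 5.96 FPKM and the tissue-restricted Psma8 (testis) and Psmb11 (thymus) one of 0.304 FPKM. In frozen DCA controls Psmb7 was again the highest member, at 74.5 FPKM, but the beta ring median of 68.1 FPKM lay above the alpha ring median of 53 FPKM. Psmb10, at 10.8 FPKM, was the highest of the 3 immunoproteasome subunits there and Psmb9, at 6.21 FPKM, the lowest.

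DEHP at 6000 ppm raised nearly the whole constitutive proteasome of frozen liver. Of the 48 members tested, 29 rose (60.4%) and 1 fell, at an adjusted p under 0.05 in edgeR's quasi-likelihood test, while 7.05% of all genes rose, 4.72% fell and 11.8% changed in either direction. Of the 31 constitutive ring and cap subunits 27 rose, by 0.26 to 1.00 on the log2 scale over all 31 (median 0.51), against a median of -0.03 over all genes. In 22 of the 31, all 4 treated livers lay above every control. The share of all genes that separated in this way was not computed, here or for the beta ring and FFPE counts below. Without animal 8C 17 members were called, without 44A 19 and without 29B 33. In the heat map of log2 differences the rings and the cap are positive at all 3 DEHP doses, and the interferon-inducible subunits are negative.

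**Figure D1:**
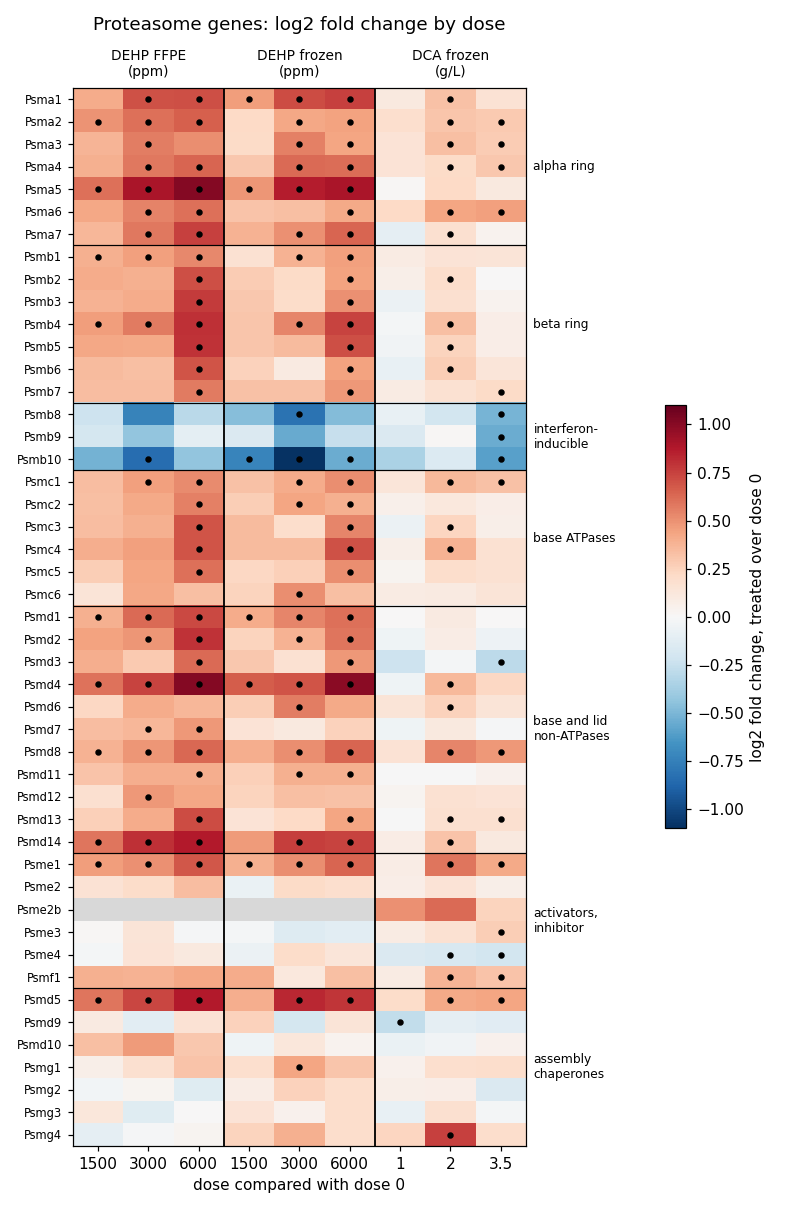
Log2 difference from the 0 dose of the same chemical and preparation for proteasome genes (rows, by role) in each comparison (columns), from edgeR fits; colour gives the log2 difference and a dot marks an adjusted p under 0.05. The 27 constitutive subunits called at 6000 ppm DEHP in frozen liver were all higher, while the called interferon-inducible subunits were lower.

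All 7 alpha ring genes rose at 6000 ppm (median log2 change 0.62). Psma5, an alpha ring subunit, had 49.6, 80.5, 81.8 and 83.3 CPM in the 6000 ppm livers, against 36.4, 44.7, 37.6 and 40.1 CPM in control livers. No treated liver overlapped the controls, although animal 29B lay far below the other 6000 ppm livers. The log2 change of Psma5 was 0.90 ± 0.13 (SE, adjusted p = 3.69e-04). Psma1, another alpha subunit, had 74.5, 114, 109 and 122 CPM in 6000 ppm livers and 54.4, 62.8, 62.9 and 68.4 CPM in control livers, a log2 change of 0.76 ± 0.13 (adjusted p = 0.00137). The groups did not overlap, and 29B was again the lowest of the treated. Psma7 rose by 0.64 ± 0.12 and Psma4 by 0.62 ± 0.14, and Psma2, Psma3 and Psma6 rose by 0.42 to 0.45 on the log2 scale. Of the 16 fits that left out 1 animal, 13 called Psma2 (not those without 63A, 44A or 8C), 11 called Psma6 (not those without 45C, 63A, 44A, 64C or 8C) and 8 called Psma3 (adjusted p up to 0.133). With the run as a term Psma2, Psma4 and Psma6 were not called.

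All 7 constitutive beta ring genes rose (median log2 change 0.48), and in each of them all 4 treated livers stood above every control. Psmb5, the chymotrypsin-like subunit, had 33.2, 48.9, 39.0 and 54.1 CPM in 6000 ppm livers, against 23, 30.03, 28.9 and 24.9 CPM in controls. Its log2 change was 0.71 ± 0.13 (SE, adjusted p = 0.00213), with the groups apart. The caspase-like subunit Psmb6 rose by 0.44 ± 0.12 (adjusted p = 0.0204), at 63.4, 80.3, 65.1 and 88.1 CPM in treated livers against 52.1, 56.9, 56.0 and 53.6 CPM in controls, a call lost without 44A or 8C (adjusted p up to 0.0875). Psmb7 rose by 0.48 ± 0.11 (adjusted p = 0.0107). Psmb4, a beta subunit without a catalytic site, showed the largest change of the ring. It stood at 70.4, 111, 107 and 119 CPM in treated and 55.4, 63.8, 58.7 and 65.9 CPM in control livers (log2 change 0.74 ± 0.14, adjusted p = 0.00189).

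In the cap, 5 of 6 ATPases and 8 of 11 non-ATPases rose. Of the 16 edgeR fits that left out 1 animal, 8 called Psmc2 (0.39, adjusted p up to 0.155) and 9 called Psmd3 (0.48, up to 0.153). All 16 called Psmd4, Psmd14, Psmd2, Psmc4 and Psmc3. Psmd4 encodes RPN10, a receptor for ubiquitin chains, and had the largest rise of any member in frozen liver at 6000 ppm. It had 80.1, 110, 92.8 and 122 CPM in 6000 ppm livers, against 48.6, 53.3, 48.5 and 52.5 CPM in control livers. All 4 treated livers were far above the controls, a log2 change of 1.00 ± 0.12 (SE, adjusted p = 4.34e-05). Psmd14, the deubiquitinase RPN11 that removes the chains, had 54.2, 78.4, 74.3 and 87.7 CPM in treated livers and 38.8, 51.0, 43.2 and 42.6 CPM in controls. The groups did not overlap (log2 change 0.75 ± 0.15, adjusted p = 0.00451). Psmd2, a scaffold of the base, rose by 0.59 ± 0.11 (adjusted p = 0.00211), with 181, 217, 218 and 245 CPM in treated livers against 118, 155, 146 and 153 CPM in controls. Among the ATPases, Psmc4 changed most, by 0.70 ± 0.14 (adjusted p = 0.00277), followed by Psmc3 at 0.54 ± 0.11. The 4 constitutive subunits that did not pass were Psmc6 (0.33, adjusted p = 0.198), Psmd6 (0.42, 0.0949), Psmd7 (0.26, 0.210) and Psmd12 (0.32, 0.106).

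At lower doses all the constitutive subunits were higher than controls on average, with fewer calls. At 1500 ppm 5 of 48 members rose (10.4%) and 1 fell, against 4.34% of all genes rising, 2.14% falling and 6.48% in either direction, with all 31 constitutive subunits above their controls on average and a median log2 change of 0.30. The count of calls at 1500 ppm was 2 without 60A or 75A and 3 without 40A, 45C, 63A or 71A, while it was 14 without 29B. At 3000 ppm 21 rose and 2 fell (8.17% of all genes rose and 6.48% fell, 14.7% in either direction), 18 of the risers being constitutive subunits, 6 of them in the alpha ring and 2 in the beta ring. Without animals 35A and 67C, 11 members were called at 3000 ppm, in place of 23. With the sequencing run as a term, 1 member was called at 1500 ppm and 5 at 3000 ppm. As a slope on dose, 16 members rose and 0 fell, against 1.42% of all genes rising, 1.19% falling and 2.61% changing in either direction. For the slope 2 members were called without 44A or 8C and 30 without 29B. Leaving out 32A, 45C, 63A, 64C, 71A or 75A gave 7 to 10.

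Psmd4 had 79.8, 78.2, 88.1 and 75.2 CPM at 1500 ppm and 88.4, 75.1, 82.9 and 82.4 CPM at 3000 ppm, so that most of its rise was reached at the lowest dose. Psma5 stood at 54.0, 56.6, 54.7 and 56.5 CPM at 1500 ppm and at 68.9, 76.4, 75.6 and 67.5 CPM at 3000 ppm, groups that overlapped neither each other nor the controls. The plot of levels by dose shows both courses beside those of Psmb5 and the immunoproteasome genes. Psmb5 differed: it had 30.2 to 34.6 CPM at 1500 ppm and 32.4 to 35.4 CPM at 3000 ppm, and its larger rise came at 6000 ppm.

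**Figure D2:**
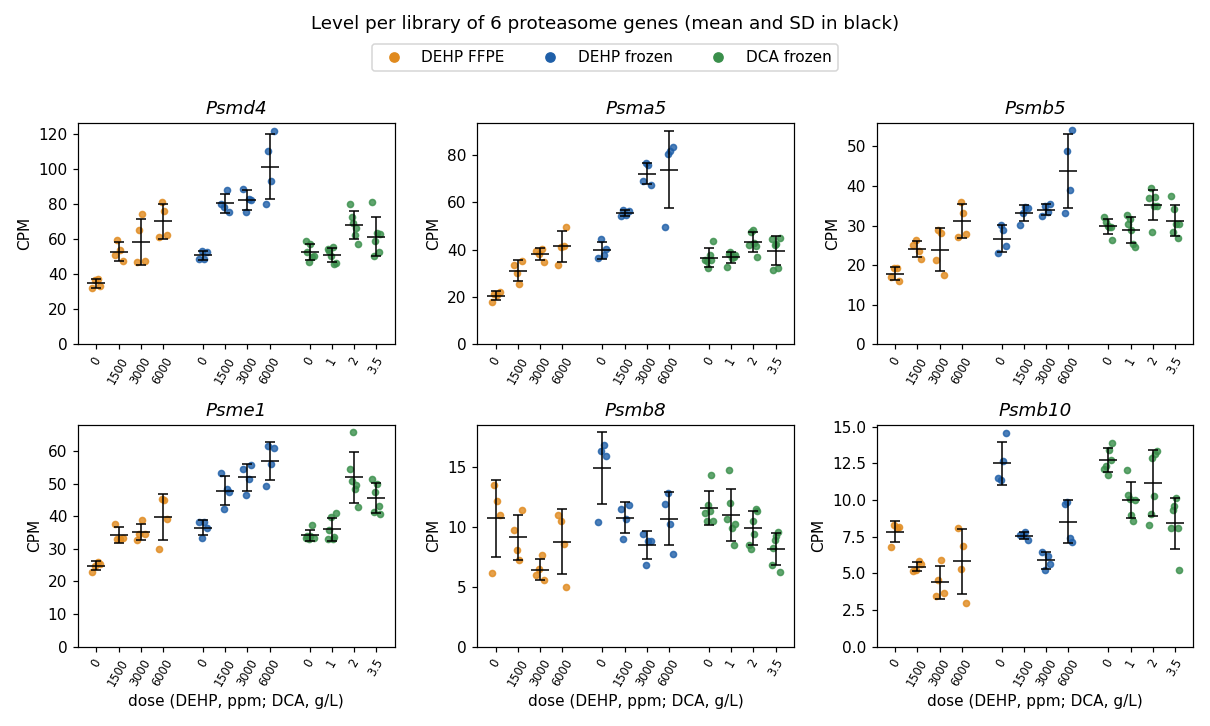
CPM of selected proteasome genes (panels) in each library (points) by dose, for DEHP FFPE, DEHP frozen and DCA frozen liver; black bars are the group mean and SD. Psmd4 in frozen liver lies between 80.1 and 122 CPM at 6000 ppm DEHP, above the 48.5 to 53.3 CPM of controls.

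The constitutive subunits were also summarised in each library. The median log2 difference from the control mean over the 31 genes was 0.208, 0.603, 0.486 and 0.756 in 6000 ppm animals 29B, 44A, 64C and 8C, against -0.134 to 0.072 in controls. It ran from 0.169 to 0.378 at 1500 ppm and from 0.354 to 0.475 at 3000 ppm. The 6000 ppm livers thus spread more widely than those of any other dose, and 29B lay below all 4 livers at 3000 ppm. FFPE libraries of the same 4 animals gave 0.371, 0.809, 0.722 and 0.69, with 29B again lowest. Run H36451 held 2 of the frozen controls (45C and 63A) and treated livers 72B and 8C. In that run the median was 0.756 in 8C and 0.253 in 72B, against 0.072 in 45C and -0.022 in 63A, values with no test. With the run as a term of the fit, 19 members were called at 6000 ppm, 5 at 3000 ppm, 1 at 1500 ppm and 0 for the slope.

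**Figure D3:**
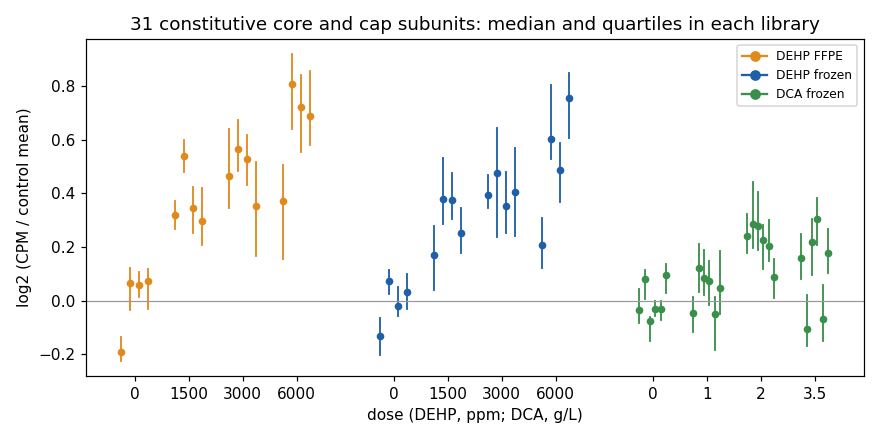
Median over the 31 constitutive subunits of the log2 difference from the control mean (vertical axis) in each library (points; lines are quartiles over the 31), by dose in DEHP FFPE, DEHP frozen and DCA frozen liver. At 6000 ppm DEHP, 29B lies at 0.371 in FFPE and 0.208 in frozen material, below the other 3 animals in both.

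Among the immunoproteasome genes, Psmb10 went the other way under DEHP. In frozen liver the log2 changes of all 3 were negative at each dose, but 0 of the 3 were called for the slope on dose. Psmb10, which replaces the trypsin-like Psmb7, had 9.72, 9.85, 7.39 and 7.15 CPM in 6000 ppm livers, against 11.5, 11.4, 12.7 and 14.6 CPM in control livers. The groups did not overlap, and Psmb10 was the member that fell at 6000 ppm (log2 change -0.55 ± 0.13, SE, adjusted p = 0.0130). At 1500 ppm Psmb10 had 7.60, 7.65, 7.82 and 7.25 CPM (-0.72 ± 0.13, adjusted p = 0.00463), and at 3000 ppm 6.48, 5.22, 6.17 and 5.65 CPM (-1.09 ± 0.14, adjusted p = 9.39e-05). The difference between doses was not tested. With the run as a term the call at 1500 ppm was lost (adjusted p = 0.0545) and that at 3000 ppm was made (0.00332). The call at 6000 ppm was lost without 75A or without 8C (adjusted p up to 0.0578) and with the run as a term (adjusted p = 0.104).

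Psmb8, which replaces Psmb5, had 9.44, 6.82, 8.84 and 8.86 CPM at 3000 ppm and 11.96, 12.9, 10.3 and 7.78 CPM at 6000 ppm, against 10.4, 16.4, 16.9 and 16.0 CPM in controls. It fell at 3000 ppm (-0.82 ± 0.18, adjusted p = 0.00579) and did not pass at 6000 ppm (-0.48 ± 0.18, adjusted p = 0.0915). The call at 3000 ppm was lost when 35A and 67C were left out (adjusted p = 0.0564) and when the run was fitted (0.0923). Control animal 32A stood apart from the other 3 and overlapped the 6000 ppm group. Psmb9, which replaces Psmb6 and lies beside Psmb8 in the MHC region of chromosome 17, did not pass at any dose. It had 4.75, 4.85, 3.64 and 3.12 CPM at 6000 ppm and 3.45, 4.94, 5.47 and 5.75 CPM in controls, groups that overlapped (-0.26 ± 0.20, adjusted p = 0.464). Of 11 Kupffer cell markers, genes of the liver macrophages, 0 were called at any DEHP dose in frozen liver, and none was at 0. Their summed level was 144 to 258 CPM at 1500 ppm, 140 to 374 CPM at 3000 ppm and 259 to 404 CPM at 6000 ppm, against 198 to 323 CPM in controls. Of 6 lymphocyte and other leukocyte markers tested, 0 were called at 6000 ppm.

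The ratio of inducible to constitutive catalytic transcripts was lower in treated liver. Ratios are of FPKM values within a library and are given without a test. Psmb8 was 18.1 ± 6.18% of Psmb5 at 6000 ppm in frozen liver, against 39 ± 5.5% in controls (SD, n = 4 each), with ranges of 10.1 to 25.2% and 31.9 to 45%. Psmb10 was 6.12 ± 1.77% of Psmb7 at 6000 ppm, against 12.3 ± 1.54% in controls. The groups lay apart for both pairs. Psmb9 was 7.37 ± 2.13% of Psmb6, against 11.6 ± 2.28%, and these overlapped. In all 3 pairs 8C had the lowest ratio and 29B the highest of the 6000 ppm livers. FFPE material gave 19.9 ± 6.48% at 6000 ppm against 42 ± 11.2% in controls for Psmb8 to Psmb5, with overlap (12.7 to 28.3% against 25.6 to 49.5%). Psmb9 to Psmb6 gave 10.2 ± 2.37% against 17.3 ± 7.84% there and overlapped too. Psmb10 to Psmb7 gave 6.55 ± 3.22% against 13.4 ± 0.383%, with the groups apart. The rise of the constitutive partner enters these ratios: in frozen liver at 6000 ppm Psmb5 rose by 0.71 on the log2 scale, while Psmb8 was not called.

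**Figure D4:**
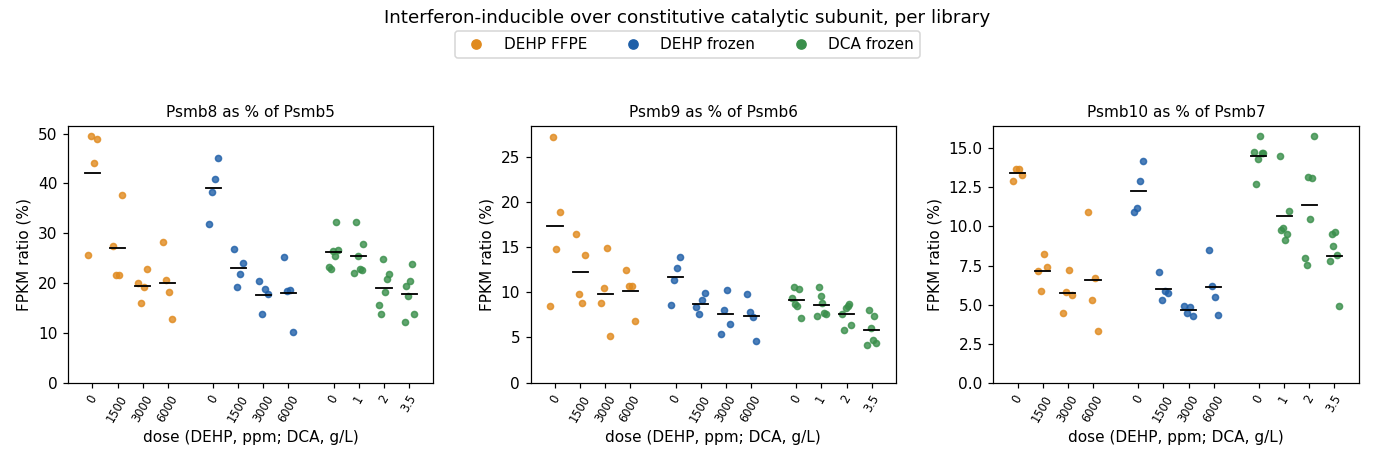
FPKM of each interferon-inducible catalytic subunit as a percentage of the constitutive subunit it replaces (panels), in each library (points) by dose in DEHP FFPE, DEHP frozen and DCA frozen liver, with group means as bars. Psmb10 to Psmb7 lies between 4.33 and 8.51% at 6000 ppm DEHP in frozen liver, below the 10.9 to 14.2% of controls.

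Activators and chaperones split by member. Psme1, a subunit of the interferon-inducible PA28 activator, had 49.2, 61.6, 55.9 and 60.9 CPM in 6000 ppm livers, against 38.2, 33.4, 38.3 and 36.3 CPM in controls. It rose at all 3 doses, by 0.39 ± 0.10, 0.51 ± 0.10 and 0.64 ± 0.10 on the log2 scale (SE, adjusted p = 0.0303, 0.00319 and 5.87e-04), with the 6000 ppm livers all above the controls. The call at 1500 ppm was lost without 45C, 75A, 3A or 60A (adjusted p up to 0.0768). Its partner subunit Psme2 had 34.9, 44.3, 40.1 and 44.0 CPM in 6000 ppm livers and 32.4, 35.6, 38.5 and 37.2 CPM in controls and did not pass (0.18 ± 0.10, adjusted p = 0.249). The nuclear activator Psme3 (-0.12, adjusted p = 0.667), the PA200 activator Psme4 (0.14, 0.505) and the inhibitor Psmf1 (0.33, 0.114) did not pass either.

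Of the 7 chaperones, 1 rose at 6000 ppm. It was Psmd5, which holds part of the base during assembly, with 31.4, 49.6, 46.6 and 60.8 CPM in treated livers against 26.9, 30.1, 24.9 and 27.3 CPM in controls (0.79 ± 0.16, adjusted p = 0.00327). At 3000 ppm Psmd5 (0.82 ± 0.16, adjusted p = 0.00228) and Psmg1, a chaperone of the alpha ring (0.43, adjusted p = 0.0334), rose, the Psmg1 call being lost in 6 of 16 fits without 1 animal (adjusted p up to 0.0828).

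The DEHP response was recovered in FFPE material of the same animals. At 6000 ppm 29 of 48 members rose and 0 fell, while 7.94% of all genes rose, 4.43% fell and 12.4% changed in either direction. FFPE and frozen liver shared 28 of the 29 risers (96.6% of each list); the Psmd7 call was made in FFPE alone and that of Psma3 in frozen liver alone. These lists come from the same animals and are not independent. The median over constitutive subunits was 0.66 on the log2 scale, and in 24 of 31 all treated libraries lay above every control. At 1500 ppm 10 members rose and 0 fell (4.55% and 1.31% of all genes, 5.86% in either direction) and at 3000 ppm 19 rose and 1 fell (6.15% and 3.24% of all genes, 9.39% in either direction), or 6 called without 35A and 67C. As a slope on dose 23 rose and 0 fell, against 2.15% and 1.44% of all genes (3.59% in either direction), though 2 were called without 44A, 8 without 32A, 9 without 63A or 64C, 14 without 75A and 15 without 45C. At 1500 ppm FFPE 1 was called without 40A, and leaving out each of the other 3 treated or the 4 control libraries gave 2 to 5 calls, and leaving out 64C gave 6.

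Psmd4 had 61.2, 81.0, 75.9 and 62.4 CPM in 6000 ppm FFPE libraries, against 32.1, 36.9, 37.3 and 33.3 CPM in control FFPE libraries. These groups did not overlap (log2 change 1.01 ± 0.15, SE, adjusted p = 3.08e-04). Psma5 had 33.4, 41.2, 41.7 and 49.4 CPM at 6000 ppm and 17.8, 21.3, 20.9 and 22.1 CPM in controls (1.01 ± 0.13, adjusted p = 9.02e-05). Psmb5 had 27.2, 36.0, 33.3 and 27.8 CPM at 6000 ppm and 17.01, 19.3, 19.4 and 15.9 CPM in controls (0.80 ± 0.15, adjusted p = 0.00261), again with no overlap. The standard errors of the immunoproteasome subunits were larger here. Psmb10 fell at 3000 ppm (-0.84 ± 0.24, adjusted p = 0.0349) and did not pass at 6000 ppm (-0.44 ± 0.24, adjusted p = 0.252), where 29B, at 8.09 CPM, lay within the control range and 8C stood at 3.00 CPM. The call at 3000 ppm was lost without 35A and 67C together (adjusted p = 0.232) and in 6 of the 16 fits that left out 1 animal (45C, 63A, 75A, 35A, 67C or 9A, adjusted p up to 0.106). The test of whether the 6000 ppm effect differed between FFPE and frozen liver called 0 members and 0 of 14065 genes (1 member and 254 genes at an unadjusted p under 0.05 in edgeR). The members' differences ran from -0.51 to 0.31 with a median of 0.10 on the log2 scale.

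Most proteasome transcripts were lower in FFPE than in frozen liver. Paired within the 16 DEHP animals, 39 of 48 members were lower (81.2%) and 4 higher in FFPE than in frozen liver, against 31.3% of all genes lower, 32.9% higher and 64.2% in either direction; the median was -0.46 over members and 0.02 over all genes. The 16 pairs included 35A and 67C, whose libraries did not match their own partners. The alpha ring was lowest, with all 7 lower (median -0.79). Psma2 averaged 32.2 ± 6.39 CPM in FFPE and 60.7 ± 10.2 CPM in frozen liver (SD, n = 16 each) and was lower in FFPE in 16 of 16 animals (log2 difference -0.92 ± 0.05, SE, adjusted p = 3.27e-13). Psmc6, Psma3 and Psmd6 were lower by similar amounts (-0.86, -0.82 and -0.81). All 7 beta ring genes (median -0.57) and all 6 ATPases (median -0.51) were lower as well.

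The non-ATPases were the exception in part: 8 of 11 were lower and 1 higher. The higher one was Psmd3, a lid subunit, with 61.1 ± 14 CPM in FFPE and 38.8 ± 7.2 CPM in frozen liver (SD, n = 16 each). It was higher in 16 of 16 animals (0.64 ± 0.08, adjusted p = 1.77e-07). Psme3 was also higher in 16 of 16 (0.32, adjusted p = 3.96e-05) and Psmf1 in 14 of 16 (adjusted p = 0.00584). Psmb11, at 1.92 CPM in FFPE and 1.08 CPM in frozen liver, was the other. Psmb8 (-0.27) and Psmb10 (-0.46) were lower, so that within a preparation their levels can be set beside controls of that preparation only.

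**Figure D5:**
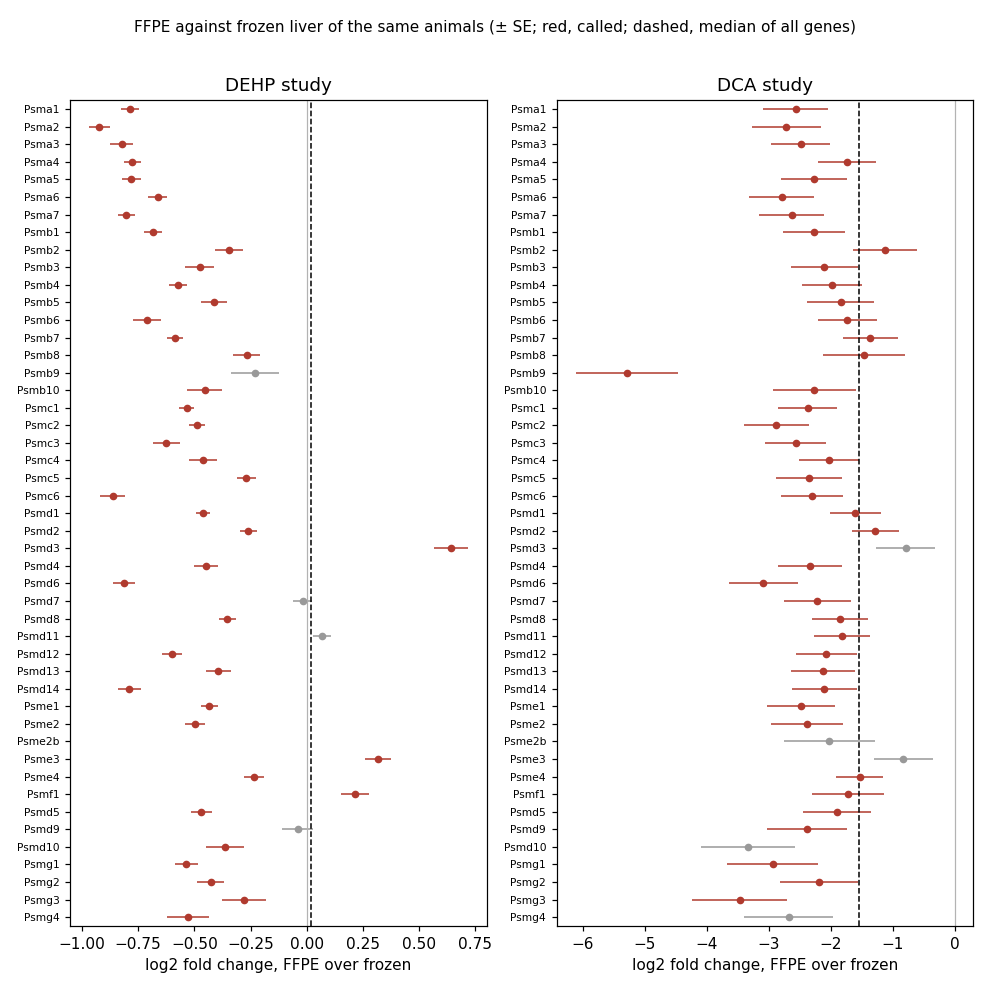
Log2 difference between FFPE and frozen liver of the same animals for each proteasome gene (points, with SE as lines; red marks an adjusted p under 0.05, the dashed line the median of all genes), by role, for DEHP (16 pairs) and DCA (24 pairs), from edgeR fits with the animal as a block. Psma2 lies at -0.92 and Psmd3 at 0.64 in DEHP, while the DCA points lie mostly below -1.54, the median of all genes in that comparison.

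In DCA, 42 of 47 members were lower and 0 higher in FFPE than in frozen liver, against 59.4% of all genes lower and 1.21% higher (60.6% in either direction). All genes had a median of -1.54 on the log2 scale and members one of -2.21. With DESeq2's size factors the median of all genes moved to -0.63 and that of members to -1.35, and 21 members were called; 7 of 47 members lay above the median of all genes with either scaling. The alpha ring had a median of -2.57 and the assembly chaperones one of -2.68, and Psmd3 (-0.79, adjusted p = 0.131) and Psme3 (-0.83, 0.118) were not called. Psmb9 had 4 counts in the 24 FFPE libraries together, 22 of which were at 0. For dose in DCA FFPE, 25 members passed the filter and 0 were called at any dose in edgeR. At 1, 2 and 3.5 g/L, 0, 1 and 1 members had an unadjusted p under 0.05. Of the 4772 genes tested, 0.126% were called at 1 g/L (0.105% higher and 0.021% lower), 0.335% at 2 g/L (0.251% and 0.0838%) and 0.293% at 3.5 g/L (0.21% and 0.0838%), with 64, 226 and 368 genes at an unadjusted p under 0.05. All 6 control FFPE libraries came from run V18431 and all libraries at 2 and 3.5 g/L from run W48315, so run and dose cannot be told apart there.

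In frozen DCA liver the constitutive subunits rose less at 3.5 g/L than at 6000 ppm DEHP, with a median log2 change of 0.14 against 0.51. More members were called at 2 g/L than at 3.5 g/L, but these doses were not compared by test. At 1 g/L 0 members rose and 1, the chaperone Psmd9 (-0.27, adjusted p = 0.0462), fell, a call lost in most fits that left out an animal, while 4.11% of all genes rose and 7.01% fell (11.1% in either direction). At 2 g/L 22 of 48 rose (45.8%) and 1 fell, against 15.5% and 13.7% of all genes (29.2% in either direction); 18 of the 22 were constitutive subunits. At 3.5 g/L 12 rose (25%) and 5 fell, against 21.9% and 21.1% of all genes (43% in either direction), so the share of members that rose was close to that of all genes. As a slope on dose 15 rose and 4 fell, against 20.5% and 18.8% of all genes (39.3% in either direction). The median over the 31 constitutive subunits in each liver ran from -0.106 to 0.303 at 3.5 g/L and from 0.087 to 0.287 at 2 g/L, against -0.076 to 0.094 in controls. Without the 3 shallow libraries at 2 g/L, 10 members were called at that dose. At 2 g/L 5 of 6 hepatocyte, 4 of 7 stellate and 2 of 7 endothelial markers were lower, and their part in the members' values was not tested.

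Where DCA did raise subunits, the changes were small. Psmd8, a lid subunit, had 81.9, 103 and 112 CPM (lowest, median, highest of 6) at 3.5 g/L, against 64.5, 72.4 and 79.4 CPM in controls, with no overlap (0.47 ± 0.07, SE, adjusted p = 1.08e-05). At 2 g/L it had 93.5, 107 and 116 CPM. Psma6, of the alpha ring, had 60.8, 72.7 and 76.7 CPM at 3.5 g/L, against 46.2, 51.6 and 56.0 CPM in controls (0.45 ± 0.09, adjusted p = 1.87e-04), and all 6 treated livers lay above the controls. The chaperone Psmd5 had 29.95, 36.3 and 39.7 CPM at 3.5 g/L and 21.3, 26.9 and 27.8 CPM in controls (0.44 ± 0.09, adjusted p = 4.33e-04), likewise apart. The activator Psme1 had 40.6, 45.2 and 51.3 CPM at 3.5 g/L, against 33.1, 33.6 and 37.3 CPM in controls (0.42 ± 0.08, adjusted p = 2.42e-04). The inhibitor Psmf1 rose by 0.32 ± 0.06 (adjusted p = 3.03e-04) and the nuclear activator Psme3 by 0.27 ± 0.06 (adjusted p = 0.00133). Neither was called at 6000 ppm DEHP in either preparation. There Psmf1 changed by 0.33 in frozen and 0.42 in FFPE liver, and Psme3 by -0.12 and -0.01. Neither was among the 15 members whose top-dose effect differed between the chemicals by test.

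Other members did not rise at 3.5 g/L. Psmd4 had 50.1, 60.9 and 80.8 CPM at 3.5 g/L, overlapping the 47.0, 51.6 and 58.9 CPM of controls (0.22 ± 0.10, adjusted p = 0.0594), although it rose at 2 g/L (0.36, adjusted p = 0.00759). Psmb5 (0.07 ± 0.08, adjusted p = 0.530) and Psma5 (0.11 ± 0.09, adjusted p = 0.350) did not pass. Psmd3 fell, with 32.7, 41.4 and 51.6 CPM at 3.5 g/L and 47.6, 50.9 and 59.1 CPM in controls (-0.29 ± 0.10, adjusted p = 0.0222), a call lost without animal 3, 98 or 99 (adjusted p up to 0.0598). The PA200 activator Psme4 also fell (-0.21 ± 0.06, adjusted p = 0.00704). The 2 and 3.5 g/L livers were in other lanes than the frozen DCA controls, which cannot be told apart from dose.

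All 3 immunoproteasome subunits fell at 3.5 g/L. Psmb10 had 5.20, 8.71 and 10.1 CPM at 3.5 g/L, against 11.7, 12.6 and 13.9 CPM in controls, with every treated liver below every control (-0.60 ± 0.13, adjusted p = 4.81e-04). Psmb8 had 6.22, 8.56 and 9.58 CPM at 3.5 g/L and 10.5, 11.3 and 14.3 CPM in controls, also apart (-0.51 ± 0.12, adjusted p = 0.00184). Psmb9 had 1.98, 2.91 and 3.94 CPM at 3.5 g/L and 3.36, 4.16 and 5.42 CPM in controls, with some overlap (-0.55 ± 0.17, adjusted p = 0.00942). None of the 3 passed at 1 or 2 g/L. Kupffer cell markers fell at the same dose: 9 of 11 were lower, with a summed level of 170 to 259 CPM at 3.5 g/L against 319 to 438 CPM in controls. Of 5 lymphocyte and other leukocyte markers tested 1 was lower, with 29.9 to 99.1 CPM summed at 3.5 g/L against 45.3 to 63.7 CPM in controls, and none of these markers was at 0. Their part in the fall of the immunoproteasome was not tested. Among all genes 21.1% fell at 3.5 g/L. Psmb8 was 17.8 ± 4.33% of Psmb5 at 3.5 g/L, against 26.2 ± 3.43% in controls (SD, n = 6 each), with overlap (12.2 to 23.8% against 22.7 to 32.3%). Psmb9 was 5.77 ± 1.62% of Psmb6, against 9.1 ± 1.28%, also with overlap. Psmb10 was 8.13 ± 1.74% of Psmb7, against 14.5 ± 1.01%, with the groups apart.

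The DEHP effect at 6000 ppm exceeded the DCA effect at 3.5 g/L in 15 of 47 members and fell short in 0, by a test of the difference of the 2 contrasts in frozen liver, while 6.48% of all genes had the greater and 6.85% the smaller effect (13.3% in either direction). The doses are not matched, and chemical, study and collection year cannot be told apart. Constitutive subunits made up 14 of the 15. The difference was 0.80 ± 0.16 for Psma5 (SE, adjusted p = 6.78e-04), 0.66 ± 0.15 for Psmb5 (adjusted p = 0.00308), 0.66 ± 0.11 for Psmd2 (adjusted p = 1.70e-04) and 0.78 ± 0.17 for Psmd3 (adjusted p = 0.00248) on the log2 scale. Psma6 gave -0.02 ± 0.14 (adjusted p = 0.958), Psme1 0.24 (0.227) and Psmd8 0.18 (0.411). The immunoproteasome subunits gave 0.05 (Psmb8), 0.31 (Psmb9) and 0.06 (Psmb10), with adjusted p from 0.453 to 0.907. Leaving out DEHP animals in turn, 12 to 23 members were called, the 23 without 29B. Of the 12 risers at 3.5 g/L, 10 also rose at 6000 ppm DEHP (83.3% of the DCA list and 34.5% of the 29). The share that rose at 6000 ppm DEHP was already 60.4% over all 48 members tested there.

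Genes around the proteasome moved in part. Of 16 partners outside the naming rule tested, 3 rose and 0 fell at 6000 ppm DEHP in frozen liver, among them Usp14, a deubiquitinase of the cap (0.48, adjusted p = 0.0235), and Shfm1, the small lid subunit SEM1 (0.35, 0.0361). At 3.5 g/L DCA 7 partners rose and 1 fell; Zfand5, which stimulates the proteasome, rose by 0.58 (adjusted p = 1.18e-05) and the shuttle factor Ubqln2 changed by -0.49 (4.29e-05). Of 15 regulators tested, 3 rose under 6000 ppm DEHP: Nfe2l2 (0.86, adjusted p = 0.0130), its partner Mafg (0.48, 0.0248) and Vcp, an ATPase that extracts ubiquitinated proteins (0.45, 0.0114). Under 3.5 g/L DCA 6 rose and 3 fell, with Nfe2l2 at 1.49 (1.12e-09), Nfe2l1 at 0.45 (1.38e-05) and Stat3 at -0.78 (1.69e-06). In DEHP FFPE libraries at 6000 ppm, 2 regulators rose, Vcp (0.61, 0.00659) and Nfe2l1 (0.62, 0.0134). Among all genes 7.05% rose and 4.72% fell at 6000 ppm DEHP in frozen liver, and 7.94% and 4.43% in FFPE liver. At 3.5 g/L DCA 21.9% of all genes rose and 21.1% fell.

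Peptide loading of MHC class I, the step after the immunoproteasome, showed 0 of 14 genes called at 6000 ppm DEHP in either preparation, although Psmb10 fell in frozen liver. At 3000 ppm in frozen liver 2 of 14 were lower, the peptide transporter subunit Tap2 (-0.96, adjusted p = 0.00149) and the regulator Nlrc5 (-0.53, 0.0359). At 3.5 g/L DCA 12 of 14 were lower, among them Pdia3 (-0.90, adjusted p = 1.40e-06) and Canx (-0.48, 2.01e-06), chaperones of the endoplasmic reticulum, and the exceptions were the regulators Irf1 and Nlrc5. Hepatocyte, endothelial and stellate markers moved at that dose too. Of them 4 of 6, 4 of 7 and 5 of 7 were lower, and their summed levels were 73400 to 92800, 361 to 409 and 451 to 614 CPM at 3.5 g/L, against 100000 to 123000, 427 to 482 and 572 to 812 CPM in controls. At 6000 ppm DEHP 2 of 6 hepatocyte markers were lower, with 60500 to 70700 CPM summed against 78600 to 94200 CPM in controls. The part of these shifts in the members' values was not tested. Among all genes 6.48% fell at 3000 ppm and 4.72% at 6000 ppm DEHP in frozen liver, and 21.1% at 3.5 g/L DCA.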

How the data were processed

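Libraries were made with a stranded total RNA kit after depletion of ribosomal RNA and sequenced on a HiSeq, per the labels' protocols. The submitters' processing notes name CASAVA, STAR 2.4, RSEM and the mm10 build, with no role for each. The deposited expected counts, which the authors made with RSEM, were rounded and tested. The deposited FPKM values served for levels between genes. The authors' raw count tables and RPKM tables served as alternatives only.

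Dose groups of each chemical and preparation were fitted together in edgeR 4.0.16 (R 4.3.3) with TMM scaling, filterByExpr at a minimum count of 10, the quasi-likelihood test and Benjamini-Hochberg adjustment over all genes tested; a call is an adjusted p under 0.05. CPM were computed by edgeR. Standard errors were the log2 change divided by the root of F. FFPE and frozen libraries were paired by the animal number in the labels, as a block. Fits were tested on simulated data. DESeq2 1.42.0, other filters, scalings, tables, sequencing runs and left-out animals were alternatives. Figures used matplotlib 3.10.9 (Python 3.11.15).

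Members and lists were chosen with earlier results of these data known. The members named with values were the catalytic subunits and their replacements, the activators and the inhibitor, Psmd4, Psmd14, the 2 of each role with the largest called change at each top dose, and up to 4 of smallest adjusted p between preparations and between chemicals; others named at their values were added after these were seen. Intervals and errors cover the spread between animals.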

Additional observations from a re-analysis of the deposited data

Results flagged for a closer look

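In 348 groups of 4 or 6 libraries of the named members, 17 libraries (4.89%) stood apart from the others of their group by Dixon's criterion, and chance gives about 1 in 20. Animal 32A supplied 4 of them, all control values that were the lowest of their group: 6.78 CPM for Psmb10 and 19.3 CPM for Psmd14 in FFPE liver, 10.4 CPM for Psmb8 and 61.2 CPM for Psmc3 in frozen liver. Animal 29B stood apart at 6000 ppm in frozen liver with 49.6 CPM for Psma5, the lowest of that group. Animal 3A at 1500 ppm had 37.7 CPM for Psme1 in FFPE and 64 CPM for Psmb4 in frozen liver. The other DEHP values were 341 CPM for Psme4 in 67C at 3000 ppm (frozen), 2.02 CPM for Psmb9 in 8C at 6000 ppm (FFPE) and 60.3 CPM for Psma7 in control 45C (frozen).

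In frozen DCA liver the values that stood apart were 62.9 CPM for Psma4 in animal 78 at 2 g/L, and 54.1 CPM for Psmd3 and 26.1 CPM for Psmf1 in animal 49 at 1 g/L. Among DCA controls they were 14.3 CPM for Psmb8 and 37.3 CPM for Psme1 in animal 7, 180 CPM for Psmd2 in animal 8 and 21.3 CPM for Psmd5 in animal 3.

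The effect of 6000 ppm DEHP differed from that of 3.5 g/L DCA in 15 members, by a test of the difference itself in frozen liver. The log2 differences (DEHP minus DCA) in the rings were 0.62 for Psma1, 0.80 for Psma5, 0.62 for Psma7, 0.45 for Psmb2, 0.48 for Psmb3, 0.68 for Psmb4 and 0.66 for Psmb5. In the cap they were 0.49 for Psmc3, 0.54 for Psmc4, 0.62 for Psmd1, 0.66 for Psmd2, 0.78 for Psmd3, 0.78 for Psmd4 and 0.65 for Psmd14. The activator Psme4 differed by 0.36. Chemical, study and collection year cannot be told apart in these differences.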

How the results depend on the processing

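Values are members called. With the sequencing run as a term, DEHP frozen liver gave 1, 5 and 19 at 1500, 3000 and 6000 ppm and 0 for the slope, in place of 6, 23, 30 and 16. At 6000 ppm that fit lost the calls of 7 named members. Of the 29 named members, Psmb8, Psmb9, Psmd6, Psme2, Psme3, Psme4 and Psmf1 had no call there to lose. Fitting only the groups compared gave 18. At 1500 ppm, DESeq2 gave 11 in frozen liver. The other count tables gave 3 in FFPE liver, where no filter gave 5, and 3 in frozen liver. Without 35A and 67C, which were left out after the pairing was seen, 3000 ppm gave 6 in FFPE and 11 in frozen liver. In frozen DCA liver, 1 g/L gave 0 without a filter, without the shallow lane and without run V18431, and 2 g/L gave 10 without that lane, both sets chosen after depth and runs were seen. For DCA FFPE against frozen, DESeq2's size factors gave 21 and controls alone 13, in place of 42. The cause of these shifts was not tested, beyond the smaller number of samples where libraries were left out.

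Leaving out each animal gave 1 to 13, 14 to 23 and 25 to 32 at the 3 DEHP doses in FFPE liver and 2 to 32 for the slope, and 2 to 14, 16 to 27, 17 to 33 and 2 to 30 in frozen liver. Frozen DCA liver gave 0 to 6, 18 to 25, 16 to 20 and 16 to 22. DEHP FFPE against frozen gave 43 to 44, its difference in the 6000 ppm effect 0 to 0, and DEHP against DCA 12 to 23. Without the replicate block of the paired fits, FFPE against frozen gave 43 in DEHP and 38 in DCA, and the difference in effect 0. Direction was compared only for the named members at the top doses and for the catalytic ratios, where no called value and no ratio changed direction. Uncalled values near 0 did when an animal was left out: Psme3 reached 0.02 in frozen and 0.14 in FFPE DEHP liver, Psmb9 0.21 in FFPE DEHP liver, and Psma7 -0.025, Psmc3 -0.01 and Psmb5 -0.003 in frozen DCA liver. DCA FFPE libraries were not left out in turn, and their depth limits every value from them.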
